A study of Mus musculus with 29 samples.

Results

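The genes of mitochondrial protein import were followed in sorted blood stem and progenitor cells that carry 1 or 2 copies of Pmpcb, a gene of this machinery that lies in the deleted interval of 5A3+/del mice. The members were taken by symbol: every gene whose name starts with Timm, Tomm, Immp, Pmpc or Grpel, and Hspa9, Hspd1, Hspe1, Mipep, Samm50, Chchd4 and Gfer. This gave 35 of the 30025 genes in the table. Libraries for RNA-Seq were made from 3 sorted populations, the CD150hi and CD150lo HSC and the CD150neg MPP, in 5 wild-type (WT) mice and 5 mice with the deletion, all C57BL/6J and between 12.42 and 13.85 weeks old. Each group held 5 libraries, except 5A3+/del CD150neg MPP with 4, which makes 29. The 5A3+/del mice were heterozygous for a germ line deletion on chromosome 5, made by Cre recombination between loxP sites placed in Fbxl13 and Srpk2. All cells of these mice therefore have a single copy of Pmpcb and of its neighbours in the interval, and the effect of Pmpcb alone cannot be told apart from that of the other deleted genes. All cells were sorted as c-kit+, lineage-, Sca-1+, CD41- and CD48- and then split by CD150. The labels name the CD150neg cells HSC, whereas the study calls them MPP.

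Most mitochondrial proteins are encoded in the nucleus, made in the cytosol and carried through the organelle's membranes. The TOM complex of the outer membrane takes in precursors, the small TIM chaperones and TIM22 route carrier proteins to the inner membrane, and TIM23 passes proteins with a presequence to the matrix, where a motor built on Hspa9 pulls them in. There the processing peptidase, a heterodimer of Pmpca and Pmpcb, cuts off the presequence. Pmpcb holds the catalytic site, and Pmpca recognises the substrate. The chaperonin of Hspd1 (Hsp60) and its lid Hspe1 (Hsp10) folds many of the proteins brought in. Blood stem cells are known to rely less on mitochondrial respiration than their progeny.

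Pmpcb (ENSMUSG00000029017) lies on the plus strand of chromosome 5 at positions 21242959 to 21262970 of mm9, with 5141 bp of annotated exon. Tomm7 and Grpel1 are the other members on this chromosome. Tomm7 starts 162496 bp past the end of Srpk2, the gene at the far edge of the deletion, and Grpel1 lies at 36807647 to 36816729, so both are outside it. Windows from 250 bp before to 50 bp after the annotated start were available from RefSeq (GRCm38.p6) for 31 of the 35 members, and not for Grpel2, Hspa9, Tomm40l and Tomm7. They were searched on both strands for 4 motifs that belong to regulators of mitochondrial or stress genes: the NRF1 site (GCGCA, any base, then GCGC), the heat shock element GAANNTTC, the E-box CACGTG and the ETS core CCGGAAG. The ETS core was found in 12 of the 31 members (38.7%), against 9.93% of all 27025 genes, where a gene counted if any of its windows matched. The E-box was found in 6 (19.4% against 8.09%), the NRF1 site in 4 (12.9% against 5.19%) and the heat shock element in 3 (9.68% against 9.04%). The 27025 genes were taken whether or not they were expressed in these cells, and the shares among expressed genes alone were not counted. A match describes the letters only. The windows of Pmpcb, Pmpca, Hspe1 and Tomm20 are printed 5′ to 3′ because the results turn on these genes, with every motif match in capitals.
Pmpcb, plus strand, chr5:21736910-21737209, with an ETS core whose first base is 16 bp before the start: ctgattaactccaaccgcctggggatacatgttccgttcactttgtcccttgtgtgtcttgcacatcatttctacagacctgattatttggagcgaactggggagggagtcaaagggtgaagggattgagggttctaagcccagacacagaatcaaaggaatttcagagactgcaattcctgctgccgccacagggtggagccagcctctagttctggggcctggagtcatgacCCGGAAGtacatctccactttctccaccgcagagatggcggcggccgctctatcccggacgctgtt
Pmpca, plus strand, chr2:26389098-26389397, with an ETS core 53 bp before the start: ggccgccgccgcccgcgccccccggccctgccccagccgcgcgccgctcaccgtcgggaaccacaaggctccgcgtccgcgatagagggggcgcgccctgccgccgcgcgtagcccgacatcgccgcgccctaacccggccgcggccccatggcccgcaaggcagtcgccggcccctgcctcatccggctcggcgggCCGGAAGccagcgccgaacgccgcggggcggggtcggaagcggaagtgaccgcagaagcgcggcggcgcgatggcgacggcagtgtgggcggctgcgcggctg
Hspe1, plus strand, chr1:55087898-55088197, with a heat shock element from 84 bp before the start that runs into ETS cores on both strands: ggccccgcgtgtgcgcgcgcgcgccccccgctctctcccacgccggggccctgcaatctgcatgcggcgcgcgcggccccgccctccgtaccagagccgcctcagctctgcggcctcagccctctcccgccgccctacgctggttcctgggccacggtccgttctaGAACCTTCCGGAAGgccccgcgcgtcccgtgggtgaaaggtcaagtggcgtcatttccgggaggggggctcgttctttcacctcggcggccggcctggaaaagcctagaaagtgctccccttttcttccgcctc
Tomm20, minus strand, chr8:126945872-126946171, with an E-box 126 bp and an NRF1 site 20 bp before the start: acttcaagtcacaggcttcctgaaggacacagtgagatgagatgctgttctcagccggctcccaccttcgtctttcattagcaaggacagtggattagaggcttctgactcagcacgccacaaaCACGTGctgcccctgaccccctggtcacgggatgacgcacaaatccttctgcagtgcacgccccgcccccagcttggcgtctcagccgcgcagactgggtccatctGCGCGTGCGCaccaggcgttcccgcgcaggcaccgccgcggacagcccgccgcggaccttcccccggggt
Both subunits of the peptidase thus carried the ETS core near the start and none of the other 3 motifs. The Hspe1 window lies head to head with Hspd1: 285 of its bases are shared with a window of Hspd1, which is read from the opposite strand. The heat shock element and ETS cores of Hspe1 lie in the shared bases, so the counts above hold them for both genes.

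The deposited values were FPKM, a fragment count per unit of exon length and of library depth. The steps between low values gave 21229490 to 38797560 fragments per library. A gene was tested if at least 4 libraries reached an FPKM of 1, which held for 15409 genes and 31 of the members. Values below are normalized FPKM, that is log2(FPKM + 1) after quantile normalization transformed back, and log2 fold changes are on the log2(FPKM + 1) scale, which understates the change of low genes. Genotypes and populations were compared with limma in 1 fit of the 29 libraries, and adjusted p-values are Benjamini-Hochberg over all 15409 genes. Slamf1, which encodes CD150, had an FPKM of 9.97 to 22.6 in CD150hi HSC, 0.18 to 2.64 in CD150lo HSC and at most 0.296 in CD150neg MPP, and Kit was at 111 to 203 in every library. Cd48, whose product was absent by the sort, had at most 2.17 in CD150hi HSC, 1.04 to 6.51 in CD150lo HSC and 3.18 to 10.5 in CD150neg MPP. In WT, Cd48 was higher in CD150neg MPP than in CD150hi HSC (log2 fold change 2.37, limma adjusted p = 2.49e-05). Of the markers of cells that the sort was meant to leave out, the summed FPKM per library was at most 1.6 for 3 T cell genes, 6.2 to 32.2 for 4 B cell genes (Cd79b highest), 3.5 to 26.3 for 4 erythroid genes (Hbb-b1 highest), 21.2 to 55.5 for 3 megakaryocyte genes (Pf4 highest) and 177 to 1580 for 6 granulocyte and monocyte genes, with Lyz2 or S100a8 highest and the top value in a WT CD150lo library. Ly6a, which encodes the Sca-1 of the sort, had a higher mean in 5A3+/del mice in each population without passing the test (log2 fold change 0.61, 0.55 and 0.40 in the CD150hi, CD150lo and CD150neg cells, limma adjusted p = 0.12, 0.346 and 1). The genotype log2 fold changes of Slamf1 in the same order were 0.11, -0.46 and -0.04, and those of Kit were 0.18, 0.32 and 0.12. In CD150lo HSC both had an unadjusted p of 0.0336 without passing the test (limma adjusted p = 0.663). Xist had 234 to 319 in the 3 libraries of WT mouse 3 and at most 0.47 in the other 26, so that this mouse differed in sex from the rest.

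The import genes covered a wide range of levels. Hspe1 and Hspd1 were the highest members, with means of 77.2 and 74.0 over the 29 libraries. Tomm5, a small subunit of the TOM complex, led the outer membrane genes with 42.6, and Hspa9, the motor's Hsp70, followed with 39.5. Immp1l, a peptidase of the inner membrane, led the peptidases with 33.6. Timm8b led the small TIM chaperones with a range of 7.41 to 51.4, Tomm34, a cytosolic co-chaperone, had 24.4, and Samm50, which inserts barrel proteins into the outer membrane, had 15.7. Timm17a (12.9) was the highest gene of the TIM23 channel, and Chchd4 (12.5), the oxidoreductase of the intermembrane space, the higher of the disulfide relay genes. Pmpca ranked 14 of the 31 with 14.0, and Pmpcb ranked 22 with 6.72. That mean of Pmpcb pools both genotypes, and its WT means were 8.02, 9.23 and 9.02 in the CD150hi, CD150lo and CD150neg cells. Tomm40, which forms the pore of the outer membrane, was next to the bottom with 3.47, above Immp2l with 2.98. These ranks are per annotated exon length, and an order by fragments can differ. Tomm40, with 4239 bp of exon, had 154 to 792 fragments per library. Timm10, which ranked 19 with 815 bp, had 74 to 410. Within groups, the median coefficient of variation ran from 10.3% for Hspa9 to 46.7% for Timm8a1, and it was 12.1% for Pmpcb.

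**Figure D1:**
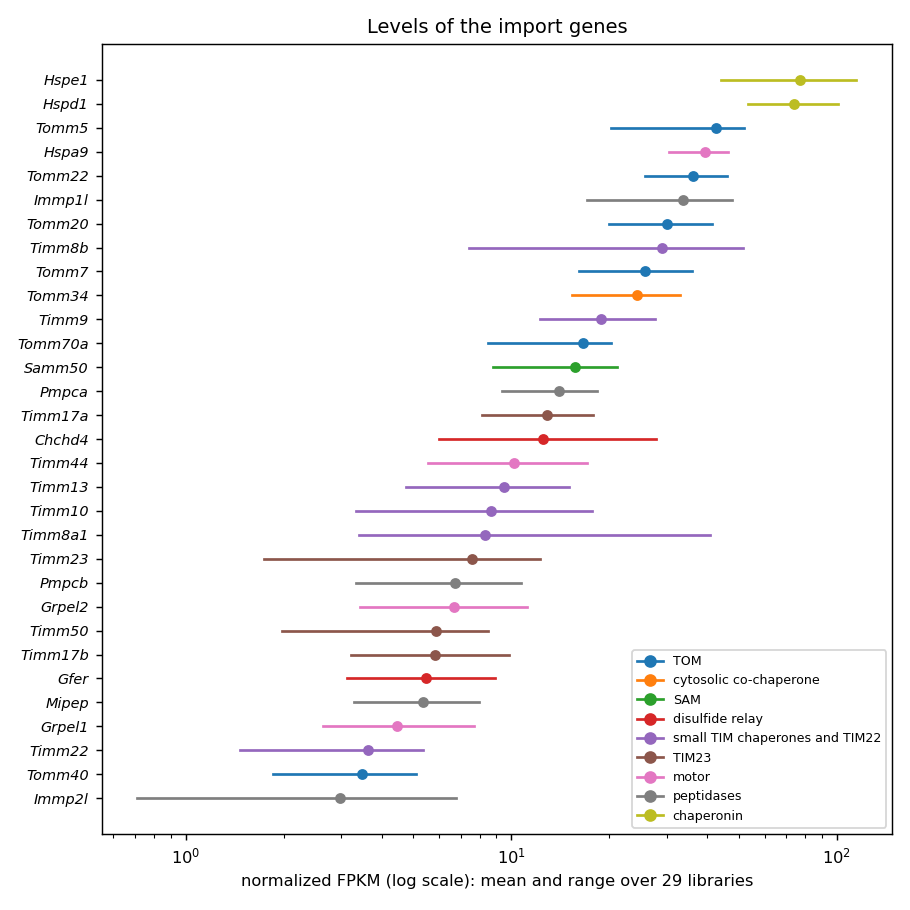
Mean (points) and range (lines) of the normalized FPKM of each of the 31 import genes tested over the 29 libraries, on a log axis and coloured by role. Hspe1 and Hspd1 lie highest, and Pmpcb, over both genotypes, ranks 22 of 31 at 6.72. Ranks are per annotated exon length.

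Pmpcb was lower in 5A3+/del mice in each population, at 54.9% of the WT mean in CD150hi HSC, 53.1% in CD150lo HSC and 47.5% among CD150neg MPP. In CD150hi HSC the 5 WT libraries had a normalized FPKM of 8.22, 7.93, 7.99, 8.55 and 7.39, and the 5 5A3+/del libraries had 3.33, 3.68, 5.29, 5.77 and 3.93. In CD150lo HSC the values were 6.67, 8.93, 10.6, 9.67 and 10.3 in WT and 5.47, 4.42, 5.15, 4.12 and 5.35 in 5A3+/del mice. Every deleted library lay under every WT library of the same population here, and the same held in CD150neg MPP, where WT had 8.22, 8.13, 8.94, 9.11 and 10.7 and 5A3+/del mice had 4.21, 3.83, 5.02 and 4.09. Between 409 and 1697 fragments per library stood behind these values. Pmpcb fell by 0.76 on the log2 scale in CD150hi HSC (SE 0.13, limma adjusted p = 0.00941), by 0.78 in CD150lo HSC (SE 0.13, limma adjusted p = 0.00693) and by 0.92 among CD150neg MPP (SE 0.14, limma adjusted p = 0.0016). The genotype difference did not differ detectably between populations: limma's interaction terms were -0.16 for CD150neg MPP against CD150hi HSC (unadjusted p = 0.398), -0.14 against CD150lo HSC (unadjusted p = 0.469) and -0.02 for CD150lo against CD150hi HSC (unadjusted p = 0.898). The values are shares of all RNA in sorted cells, so that fewer cells of a type and less RNA per cell cannot be told apart. Fitted on the 2 groups of a comparison alone, the difference was the same and no longer passed the test in any population (adjusted p 0.386, 0.224 and 0.0787). It also failed in CD150hi HSC without WT mouse 4 (adjusted p 0.0541) or 5A3+/del mouse 2 (0.0556), and in CD150lo HSC without WT mouse 3 (0.0898) or WT mouse 4 (0.065).

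**Figure D2:**
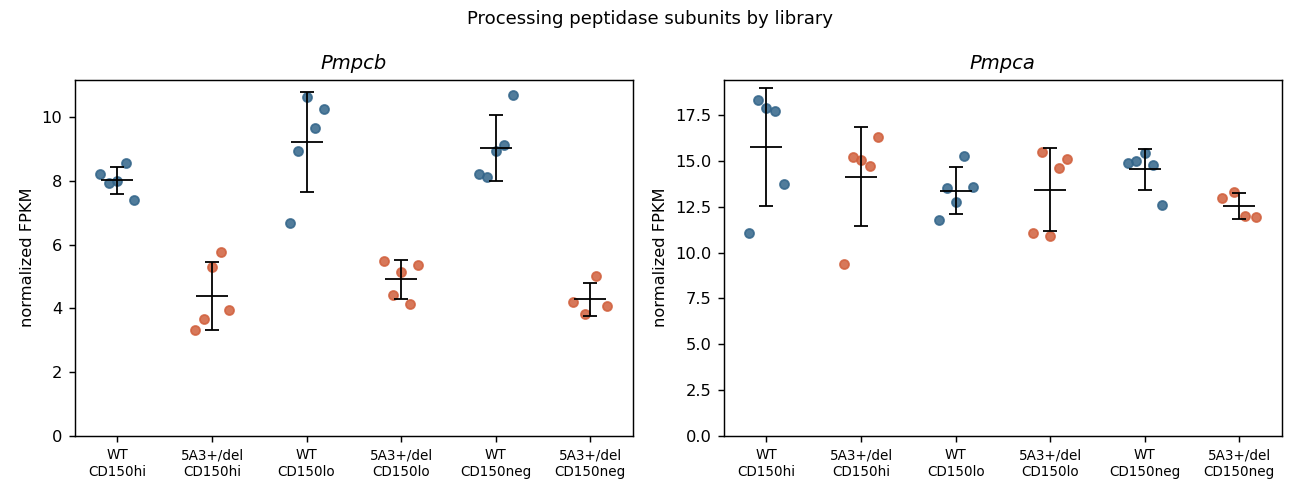
Normalized FPKM of Pmpcb and of its partner Pmpca in each library (points, blue WT, orange 5A3+/del) with the group mean and SD (bars). The groups of Pmpcb are apart in each population, from 7.39 against 5.77 at the closest in CD150hi HSC, while those of Pmpca overlap.

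Pmpca, the partner subunit encoded on chromosome 2, did not pass the test for genotype. In CD150hi HSC it had 11.1, 18.3, 17.9, 17.8 and 13.7 in WT and 9.4, 15.2, 15.1, 14.8 and 16.3 in 5A3+/del mice (log2 fold change -0.14, SE 0.14, limma adjusted p = 0.719). In CD150lo HSC the values were 11.8, 13.5, 12.8, 15.3 and 13.6 against 11.1, 15.5, 10.9, 14.6 and 15.1 (-0.01, SE 0.14, limma adjusted p = 0.999), and among CD150neg MPP 14.9, 15.0, 15.5, 14.8 and 12.6 against 13.0, 13.3, 12.0 and 11.9 (-0.19, SE 0.15, limma adjusted p = 1). The groups overlapped in each population, in CD150neg MPP through WT mouse 5 alone (12.6), since the other 4 WT libraries lay above all of the 5A3+/del libraries. Without that mouse the log2 fold change there was -0.242 (limma adjusted p = 0.998). The ratio of Pmpcb to Pmpca, both per exon length, averaged 0.528 ± 0.126 (SD, n = 5) for WT CD150hi HSC, against 0.316 ± 0.0698 (n = 5) with the deletion. For CD150lo HSC it averaged 0.689 ± 0.104 (n = 5) against 0.378 ± 0.101 (n = 5), and for CD150neg MPP 0.628 ± 0.127 (n = 5) against 0.343 ± 0.0554 (n = 4). Every 5A3+/del library had a smaller ratio than every WT library of its population. On the log2 scale Pmpcb minus Pmpca in 5A3+/del mice differed from that in WT by -0.62 for CD150hi HSC, -0.78 for CD150lo HSC and -0.73 for CD150neg MPP (exact two-sided permutation test over mice, p = 0.00794 each, the smallest p the design allows). Per exon length, Pmpca was the higher of the subunits in all 29 libraries. This order, like the ratios, depends on the annotated exon lengths of 5141 bp for Pmpcb and 4282 bp for Pmpca. By fragments, the CD150neg library of WT mouse 5 had 1697 for Pmpcb and 1668 for Pmpca.

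No other import gene passed the test for genotype. Pmpcb was the single member called in each population, against 0.156%, 0.0324% and 0.0454% of all genes for the CD150hi, CD150lo and CD150neg cells. At an unadjusted p under 0.05, 6 members were lower in CD150hi HSC (Pmpcb, Hspe1, Tomm40, Tomm20, Timm23 and Gfer; 6.79% of all genes were lower and 6.30% higher), 4 in CD150lo HSC (Pmpcb, Hspe1, Timm13 and Tomm20; 4.09% lower and 2.78% higher) and 2 in CD150neg MPP (Pmpcb and Timm17a; 1.99% lower and 2.28% higher). No member was higher at that level. Genotypes did not overlap, with 5A3+/del lower, for Pmpcb, Hspe1 and Tomm40 in CD150hi HSC (1.48% of all genes, and 1.10% higher), and for Pmpcb alone in CD150lo HSC (0.876%, and 0.753% higher) and among CD150neg MPP (0.792%, and 0.720% higher). Of all genes, 49.3% had a lower mean log2 value in CD150hi HSC, 48% in CD150lo HSC and 50.2% among CD150neg MPP. Without Pmpcb, 22 of the other 30 members were lower in CD150hi HSC and 19 in each of the other populations. Their median log2 fold change was -0.15, -0.07 and -0.09, beside 0.0044, 0.011 and -0.0013 over all genes. In CD150hi HSC the summed FPKM of 6 granulocyte and monocyte markers was 264 to 1030 for WT against 199 to 300 for 5A3+/del, with overlap. Lyz2, the highest of them there by mean, went the other way (179 in WT against 194). The median sums were 467 against 216 in CD150hi HSC, 372 against 371 in CD150lo HSC and 235 against 269 among CD150neg MPP. The CD150hi library of 5A3+/del mouse 1 had the fewest genes above 0 (17346). Ly6a had the higher mean in 5A3+/del mice, with overlap. It was at 93.0 to 155 for WT against 136 to 211 in CD150hi HSC, 114 to 180 against 155 to 207 in CD150lo HSC and 112 to 199 against 122 to 239 among CD150neg MPP. The part of these in the result was not tested. Without 5A3+/del mouse 1, 19 of 30 members were lower in CD150hi HSC, with 3 at an unadjusted p under 0.05, and 15 of 30 were lower in CD150neg MPP. As shares of the WT mean, the 30 members had a median of 89.7% for CD150hi HSC, 95.2% for CD150lo HSC and 95.1% for CD150neg MPP, and 21, 23 and 26 of them lay within 80% to 120%. How many of all genes lay within these bounds was not counted.

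**Figure D3:**
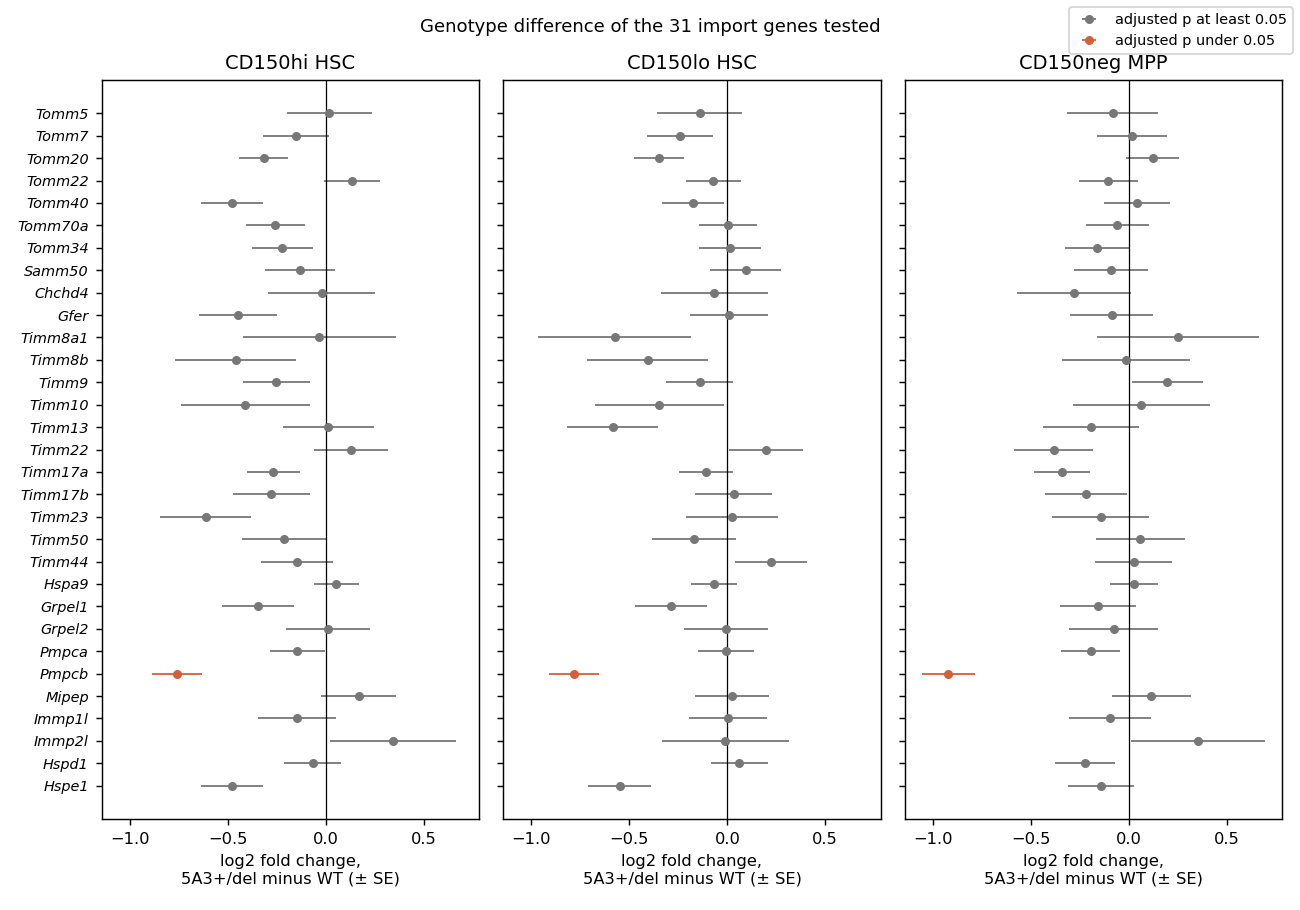
Log2 fold change of 5A3+/del minus WT with its SE for the 31 import genes tested, in each population, ordered from the outer membrane to the matrix. Pmpcb (orange) is the single gene with an adjusted p under 0.05, at -0.76, -0.78 and -0.92.

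Neither chaperonin gene passed the test, and a difference between them was not tested. Hspe1 in CD150hi HSC had 103.8, 81.0, 82.0, 80.8 and 88.2 in WT and 44.1, 52.9, 80.4, 71.3 and 68.0 in 5A3+/del mice, which left the groups apart by the narrow gap between 80.8 and 80.4 (log2 fold change -0.48, SE 0.16, limma adjusted p = 0.186). In CD150lo HSC it had 114.9, 101.5, 111.4, 90.2 and 77.5 in WT and 70.3, 65.1, 62.6, 56.9 and 81.0 in 5A3+/del mice, where 1 library of each genotype crossed (-0.55, SE 0.16, limma adjusted p = 0.252). Among CD150neg MPP the groups overlapped fully, with 72.2 to 78.9 for WT against 45.4 to 80.3 (-0.14). Hspd1, the barrel of the same chaperonin, averaged 75.6 ± 19.8 (SD, n = 5) for WT CD150hi HSC against 71.2 ± 12.3 (n = 5) with the deletion, and 71.5 ± 4.82 against 74.6 ± 4.41 for CD150lo HSC. Its log2 fold change was -0.07, 0.06 and -0.22 in the 3 populations. The ratio of Hspe1 to Hspd1, which was taken up after its values were seen and is given without a test, was 1.39 ± 0.199 (SD, n = 5; 1.04 to 1.56) in WT CD150lo HSC and 0.897 ± 0.07 (n = 5; 0.821 to 0.997) in 5A3+/del CD150lo HSC. For CD150hi HSC it was 1.23 ± 0.403 against 0.899 ± 0.214, and for CD150neg MPP 0.937 ± 0.103 against 1.02 ± 0.283. The annotated genes overlap by 112 bp on opposite strands, and whether the counting used strand is not given in the sources used here, so reads in that stretch are uncertain.

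Among the TOM genes in CD150hi HSC, Tomm20, the receptor for presequences, and Tomm40 had the smallest p-values for genotype. Tomm20 in CD150hi HSC had 32.1, 29.2, 35.2, 34.2 and 39.0 in WT and 26.5, 28.0, 26.2, 29.5 and 24.7 in 5A3+/del mice (log2 fold change -0.32, SE 0.13, limma adjusted p = 0.277). In CD150lo HSC it had 40.3, 38.8, 41.5, 37.7 and 29.2 against 26.4, 30.5, 30.0, 25.7 and 33.1 (-0.35, SE 0.13, limma adjusted p = 0.483). The groups met at a single library in each of these populations, the 5A3+/del library at 29.5 in the former and the WT library at 29.2 in the latter. That WT library lay under the 5A3+/del libraries at 30.5, 30.0 and 33.1. Among CD150neg MPP the means were 25.0 ± 3.40 (SD, n = 5) and 27.5 ± 5.36 (n = 4), and the difference had the other sign (0.12). Tomm40 in CD150hi HSC had 4.12, 5.11, 4.14, 3.48 and 3.65 in WT and 1.85, 2.89, 2.83, 3.13 and 2.67 in 5A3+/del mice, without overlap (-0.48, SE 0.16, limma adjusted p = 0.186). Its groups overlapped in CD150lo HSC (-0.17) and among CD150neg MPP (0.04). Of the other outer membrane genes, Tomm5 (99.2%, 91.0% and 97.7% of WT in the CD150hi, CD150lo and CD150neg cells) and Tomm22, a receptor (109%, 94.7% and 94.7%), stayed close to WT. Tomm7, the member nearest to the deletion, was at 91.4%, 84.6% and 100% of the WT mean, and Tomm70a, the receptor for carrier precursors, at 85.6%, 100% and 96.0%.

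**Figure D4:**
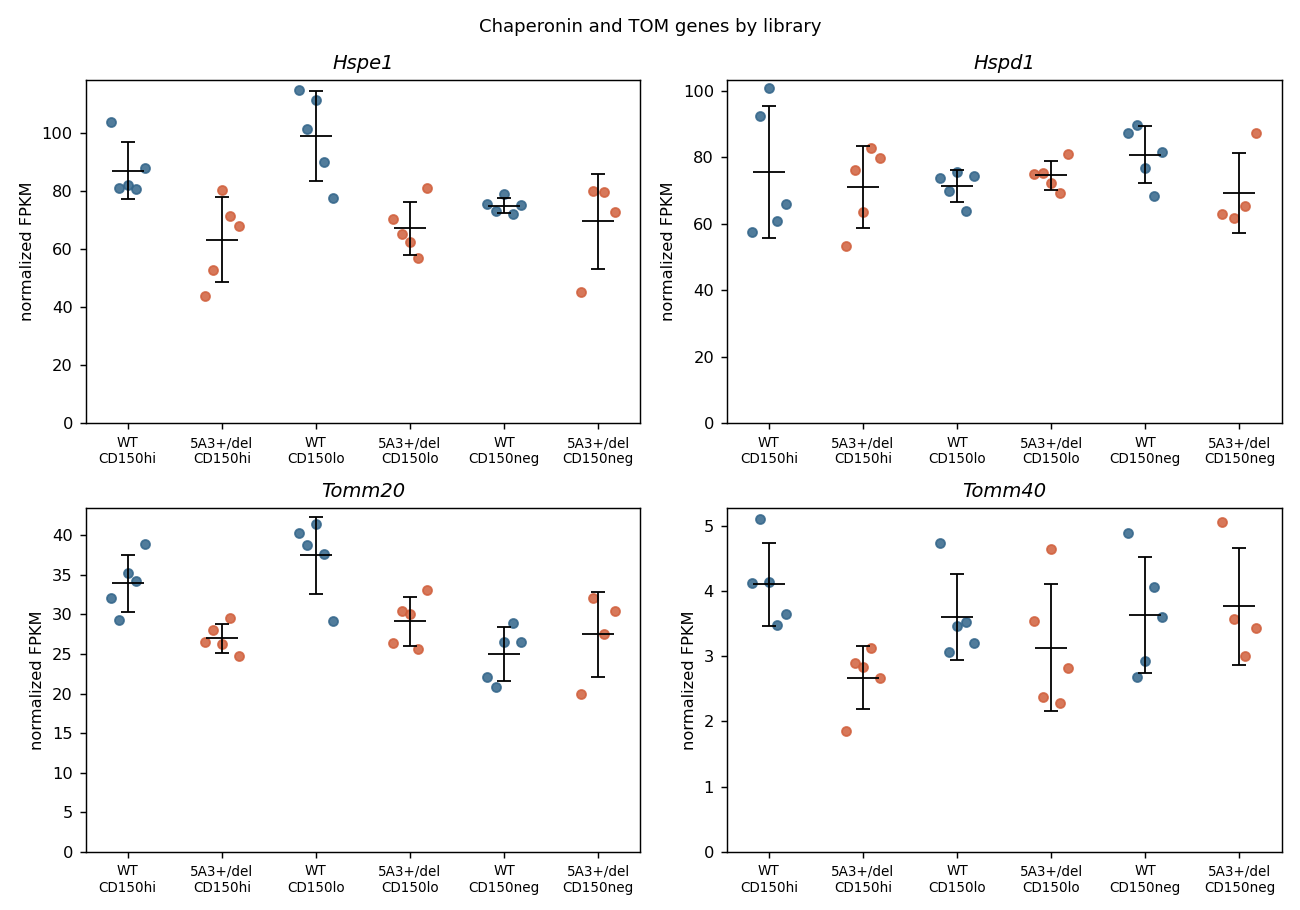
Normalized FPKM of Hspe1, Hspd1, Tomm20 and Tomm40 in each library (points, blue WT, orange 5A3+/del) with the group mean and SD (bars), each panel from 0. Hspe1 and Tomm20 of CD150hi and CD150lo HSC have lower means in 5A3+/del mice than in WT, without passing the test. Of these, only Hspe1 in CD150hi HSC has no overlap. For Tomm20 in CD150lo HSC, the lowest WT library (29.2) lies under 5A3+/del libraries of up to 33.1. Hspd1 overlaps in each population.

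In the TIM23 channel, Timm23 in CD150hi HSC had 6.79, 12.0, 12.3, 8.00 and 6.21 in WT and 1.74, 6.07, 7.55, 7.23 and 6.69 in 5A3+/del mice, so that the groups overlapped and 1 library was far below the rest (log2 fold change -0.61, SE 0.23). With that library included, which rested on 60 fragments, Timm23 was at 64.6% of WT there. This was the lowest share in this population apart from Pmpcb, close to the 65.2% of Tomm40. Timm23 was at 101% for CD150lo HSC and 90.4% for CD150neg MPP. Timm17a in CD150neg MPP had 17.0, 11.2, 13.5, 15.3 and 15.7 in WT and 8.62, 10.5, 12.5 and 13.7 in 5A3+/del mice (-0.34, SE 0.14, limma adjusted p = 1), again with overlap. Timm50, the receptor of the channel, was at 85.7%, 86.4% and 97.2% of WT. Of the small TIM chaperones, Timm13 in CD150lo HSC was at 63.8% of WT, with 7.77 to 15.0 for WT against 4.82 to 9.34. Timm8a1 had the lowest share, 55.6% in CD150lo HSC, which rests on WT mouse 3, whose library had 40.9 where the other WT libraries had 6.35 to 11.0. The gene is X-linked, and the same mouse had 5.30 in CD150hi HSC and 4.76 in CD150neg MPP. Without that mouse the share was 98.4%. Timm22, which inserts carriers in the inner membrane, was at 112%, 120% and 71.9% of WT (CD150neg MPP: -0.38, SE 0.20, limma adjusted p = 1). Gfer, the sulfhydryl oxidase that recharges Chchd4, was at 68.3%, 102% and 92.9% of WT. Within the motor, Hspa9 stood at 103%, 95.6% and 103% of WT, the steadiest member over the libraries, and its exchange factor Grpel1 at 72.8%, 77.0% and 89.2%. None of the other peptidases passed the test. Mipep, which trims some precursors after the processing peptidase, was at 114%, 103% and 108% of WT, and Immp2l at 143%, 88.2% and 136%, with a low level.

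Few import genes differed between populations. In WT, Tomm20 was lower in CD150neg MPP than in CD150hi HSC, with 20.8 to 28.9 against 29.2 to 39.0 and no overlap (log2 fold change -0.43, SE 0.13, limma adjusted p = 0.0279), and it was the only member called there, against 10.0% of all genes. That call was lost under median scaling (adjusted p 0.0502), in a fit of the 2 groups alone (0.0879) and without WT mouse 1, 2, 3 or 5 (0.0666 to 0.0987). At an unadjusted p under 0.05 there were Tomm20 and Timm9, against 21.8% of genes. Timm9, a small TIM chaperone, had a log2 fold change of -0.44 (SE 0.17, limma adjusted p = 0.108), and Timm50 was next (-0.39, adjusted p = 0.298). For CD150neg MPP against CD150lo HSC in WT, no member was called, against 0.188% of all genes, and Tomm20, Timm8a1 and Hspe1 had an unadjusted p under 0.05 (8.75% of genes). There Tomm20 had 20.8 to 28.9 against 29.2 to 41.5 (-0.57, SE 0.13, limma adjusted p = 0.0554), and with the mouse as a block it was called (limma adjusted p = 0.0339), as all-gene calls went from 29 to 65. Timm8a1 (-1.16, adjusted p = 0.303) had -0.73 without WT mouse 3, and Hspe1 had -0.38 (adjusted p = 0.467). Between CD150lo and CD150hi HSC of WT no member was called (3.53% of genes) or reached an unadjusted p under 0.05 (14.1%), with the smallest p-values for Tomm34, Timm8a1 and Grpel1 (log2 fold changes -0.26, 0.60 and 0.27). Timm8a1 had 0.0684 there without WT mouse 3. In 5A3+/del mice no member was called between CD150neg MPP and CD150hi HSC (6.16% of genes), between CD150neg MPP and CD150lo HSC (0.0389%) or between the HSC populations (3.18%). At an unadjusted p under 0.05 the first held Tomm40 (0.37), Grpel1 (0.43) and Timm22 (-0.41), against 16.9% of genes, the second held Timm22 (-0.41) against 4.95%, and the third held none against 13.3%. Next in order were Immp1l (-0.34) and Timm17a (-0.19) in the second comparison and Samm50 (0.37), Timm23 (0.46) and Tomm70a (0.29) in the third. Tomm20 had a mean of 34.0 and 37.5 in WT CD150hi and CD150lo HSC, and of 25.0 in WT CD150neg MPP, while its 3 means in 5A3+/del mice lay between 27.0 and 29.1.

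Whether the genotype difference changed with the population was tested by interaction. No member was called for CD150neg MPP against CD150hi HSC, CD150neg MPP against CD150lo HSC or CD150lo against CD150hi HSC, and limma called 0% of all genes in each. At an unadjusted p under 0.05, the first held Tomm20 (0.44, SE 0.19, limma adjusted p = 0.568) and Tomm40 (0.52, SE 0.23, limma adjusted p = 0.581), against 7.96% of genes. The second held Tomm20 (0.47, SE 0.19, limma adjusted p = 0.9) and Timm22 (-0.58, SE 0.27, limma adjusted p = 0.971), against 5.00%. The third held none, against 3.98%, with Timm23 (0.64), Timm13 (-0.60) and Gfer (0.46) next in order. Timm22 in the first (-0.51) and Hspe1 in the second (0.41) came next there.

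Genes that work beside these members were compared in the same fit. Of 19 partners of the import machinery, such as the motor's J proteins, the metaxins and the outer membrane channels, all passed the filter and none was called for genotype. At an unadjusted p under 0.05, 3 of the 19 were lower in CD150hi HSC (6.79% of all genes): Romo1, a small inner membrane protein tied to TIM23 (-0.39), Chchd3, a cristae organiser (-0.30), and Oxa1l, which inserts inner membrane proteins (-0.45). In CD150lo HSC there was none (4.09% of all genes), and among CD150neg MPP there was 1 (1.99%), the J protein Dnajc15 (-1.23, SE 0.27, limma adjusted p = 0.186). Of 17 mitochondrial proteases and their regulators, none was called for genotype. Clpp, the matrix protease, was higher at an unadjusted p under 0.05 in CD150neg MPP (0.53, limma adjusted p = 1, as were 2.28% of all genes), and Xpnpep3, which trims proteins that the processing peptidase has cut, in CD150lo HSC (0.31, limma adjusted p = 0.714, 2.78% of all genes). Between populations, 1 gene of both lists was called: Afg3l2, a protease of the inner membrane, was lower in CD150neg MPP than in CD150hi HSC of 5A3+/del mice (-0.65, SE 0.17, limma adjusted p = 0.0144), where 6.16% of all genes were called.

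The remaining 4 members did not pass the filter on low values and were not tested. Timm8a2, a copy of Timm8a1, was at 0 in 15 of 29 libraries and reached 3.19. Tomm20l, a relative of Tomm20 whose annotation overlaps Timm9 by 50 bp, was at 0 in 9 libraries and reached 8.59 in 1 WT CD150hi library, with 1.02 as the next highest value. Tomm40l, the relative of Tomm40, stayed at or under 0.733. Tomm6, a small subunit of the TOM complex, was listed at 0 in 8 libraries and had at most 1.14, with a median of 3 fragments. By annotated gene spans, introns included, 1648 bp of Tomm6 overlap Prickle4 on the same strand. Prickle4 had an FPKM of 0 to 0.583. The low value of Tomm6 is uncertain, as are those of the related pairs. How reads shared between genes or copies were counted is not given in the sources used here. By the same spans, 20 of the 35 members overlap another gene. Pmpcb is among them, with a pseudogene of 283 bp on the opposite strand inside its span. Overlap of exons alone was not counted.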

How the data were processed

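RNA of the sorted CD150hi, CD150lo and CD150neg cells was amplified and sequenced with paired-end reads, which the authors mapped to mm9 with an in-house pipeline. The submitters' processing notes name Bowtie 0.12.2 and HTSeq. The authors deposited FPKM for 30025 genes in 29 libraries, with no replicates pooled. The study's methods describe another measure, the coverage of the highest covered coding exon, which is not analysed here. Libraries were grouped by genotype and cell type in the labels.

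The 15409 genes that reached an FPKM of 1 in at least 4 libraries were put on the log2(FPKM + 1) scale (pseudocount 1), quantile normalized, and fitted with limma 3.58.1 in R 4.3.3 with 6 group means. Tests were two-sided, with Benjamini-Hochberg adjustment and a threshold of 0.05. Pmpcb minus Pmpca was tested by exact permutation over mice. A count model was not used, as the table holds no counts. Between 98.41% and 98.91% of low values were whole fragments (tolerance 0.05) once scaled by exon length (GENCODE annotation of mm9, matched for 97.52% of genes), which gave 21229490 to 38797560 fragments per library. This covers counting error only, since amplified fragments are not independent molecules. The steps were tested on simulated data. Python 3.11.15 with pandas 2.3.3 was used for tables.

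The members and lists were chosen with earlier results of these data known. The text names Pmpcb and Pmpca, in each comparison up to 5 members with the smallest adjusted p-values under 0.05 or otherwise the 3 with the smallest unadjusted p-values, members without overlap between genotypes, and the highest member of each role. Other named genes, and the ratio of Hspe1 to Hspd1, were chosen after their values were seen. Libraries of a mouse share a code in the labels, while WT and 5A3+/del mice with the same number are different animals. Over 28 pairs of libraries from the same mouse, deviations from the group means correlated with r from -0.0418 to 0.235 (median 0.0786). Alternatives covered the pseudocount, the filter, the scaling, the groups in the fit, the variance prior, mouse as a block, age and each mouse left out.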

Additional observations from a re-analysis of the deposited data

Results flagged for a closer look

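In the groups of 4 or 5 libraries, 10 of 108 group values of the 18 named genes examined had 1 library set apart from the rest, which chance alone would give in about 1 in 20 (5.4). In 5A3+/del CD150hi HSC, mouse 1 was low for Timm23 (1.74, others 6.07 to 7.55) and for Pmpca (9.4, others 14.8 to 16.3). In 5A3+/del CD150neg MPP, mouse 1 was low for Immp1l (17.1, others 31.8 to 33.2) and for Samm50 (11.8, others 17.7 to 18.3). In the same group, mouse 3 was low for Timm50 (4.44, others 5.51 to 5.64) and Tomm34 (15.4, others 23.9 to 25.6), and mouse 4 was high for Tomm70a (20.2, others 14.7 to 15.2). Among the WT libraries, Pmpca was low in CD150neg MPP of mouse 5 (12.6, others 14.8 to 15.5), Tomm40 was high in CD150lo HSC of mouse 1 (4.73, others 3.06 to 3.53), and Timm8a1 was high in CD150lo HSC of mouse 3 (40.9, others 6.35 to 11.0). All values are normalized FPKM.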

How the results depend on the processing

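The fall of Pmpcb kept its direction under every alternative run. The exact test of Pmpcb against Pmpca is at its smallest p with groups that do not overlap, so leaving out a mouse could not change its call and says nothing of its stability. Pmpcb kept its call under the other pseudocount, filter, scalings, variance prior, age and both replicate blocks (mouse, or number, as block: -0.761 each in CD150hi HSC, adjusted p 0.00878 and 0.00907). In a fit of the 2 groups compared alone, 0 members were called for genotype in each population and between WT CD150neg MPP and CD150hi HSC, as Pmpcb had -0.761, -0.784 and -0.921 with adjusted p-values of 0.386, 0.224 and 0.0787. With each mouse left out, Pmpcb ranged from -0.85 to -0.682 in CD150hi HSC, from -0.883 to -0.734 in CD150lo HSC and from -0.989 to -0.866 in CD150neg MPP, and the members called for genotype ranged from 0 to 1 in both HSC populations. Between WT CD150neg MPP and CD150hi HSC, 0 members were called under median scaling, and 0 to 1 with a mouse left out. Between WT CD150neg MPP and CD150lo HSC, 1 member, Tomm20, was called without the filter (adjusted p 0.0436), with a trend in the prior (0.0291) and with the mouse as a replicate block (0.0339), and 0 to 1 with a mouse left out. The mouse block changed no other call of a member, although calls over all genes for genotype in CD150hi HSC went from 24 to 56. Pmpca in CD150lo HSC changed sign around 0 (-0.057 to 0.0604 with a mouse left out), to 0.00459 with FPKM as deposited, 0.0405 and 0.000675 without WT mouse 4 and 5, and 0.0557 and 0.0604 without 5A3+/del mouse 1 and 3. The number of the 30 other members lower in 5A3+/del mice, examined after seeing the data, ranged with a mouse left out from 19 to 24 in CD150hi HSC, 18 to 23 in CD150lo HSC and 15 to 23 in CD150neg MPP, and from 18 to 22 under other scalings. The cause of these changes was not tested. Low members such as Immp2l and Timm22 rest on as few as 47 and 114 fragments in a library.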
